A study of Mus musculus with 16 samples.

Results

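Genes of the fat cell, 9 of the 21923 in the table, were followed by symbol through the gastrocnemius of normal and tumor-bearing mice. They were 4 genes of secreted proteins (Adipoq, Lep, Retn, and Cfd), 2 of lipid droplet proteins (Plin1 and Cidec), the fatty acid carrier gene Fabp4, and the 2 lipase genes Lipe and Pnpla2. Poly(A) RNA-seq was run on 16 gastrocnemius libraries, 4 in each of the groups NOR, CAC, AM, and KD. In each group, 2 libraries were labelled C57BL/6 and 2 BABL/c, the labels' spelling of BALB/c, and the mice were 6 to 8 weeks old when purchased. NOR mice carried no tumor. CAC mice carried a subcutaneous tumor of LLC cells (mouse lung carcinoma, in C57BL/6) or CT26 cells (mouse colon carcinoma, in BALB/c) and stood for cancer cachexia, the wasting of muscle and fat that accompanies some tumors. AM mice carried the same tumors and received amiloride, a diuretic that also inhibits exosome release, at 2 mg/kg daily from day 9. NOR, CAC, and KD mice received daily injections of PBS from day 9 instead. KD mice carried tumors of the same 2 lines with knock-down of Rab27, a GTPase of exosome release, so the knock-down lay in the tumor cells and not in the muscle. The tissue was taken on day 30. Labelled strain and tumor line changed together in the 3 tumor groups and cannot be told apart there.

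White fat cells store triglyceride in a droplet coated by perilipin 1 and release it as fatty acids when catecholamines raise cAMP. Adipose triglyceride lipase, the product of Pnpla2, removes the first fatty acid and hormone-sensitive lipase, the product of Lipe, acts next. Fat cells also secrete hormones, of which leptin reports fat stores to the brain. Myofibres express few of these genes strongly, but Pnpla2 acts in muscle too, and fat cells lie between and around the fibres. In such bulk RNA, fewer cells of a type and less RNA per cell cannot be told apart.

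The starts of 4 members are shown because their levels relative to one another carry the results on Adipoq, Plin1, Lep, and Pnpla2 given further on. Each window runs from 250 bases before to 50 after the start of the gene in RefSeq on GRCm38.p6, read on the strand of the gene, and capitals mark matches to TTNNGNAA, a form of the site of C/EBP factors, which act in fat cell differentiation. The windows are chr16:23146286-23146585 on the plus strand (Adipoq), chr7:79732727-79733026 on the minus strand (Plin1), chr6:29059971-29060270 on the plus strand (Lep), and chr7:141454938-141455237 on the plus strand (Pnpla2).
Adipoq: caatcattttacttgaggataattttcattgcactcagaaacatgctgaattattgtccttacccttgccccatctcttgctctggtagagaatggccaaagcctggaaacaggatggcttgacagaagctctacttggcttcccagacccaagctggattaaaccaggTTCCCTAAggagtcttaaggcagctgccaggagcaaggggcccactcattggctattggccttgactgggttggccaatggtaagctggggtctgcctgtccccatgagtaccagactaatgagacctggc
Plin1: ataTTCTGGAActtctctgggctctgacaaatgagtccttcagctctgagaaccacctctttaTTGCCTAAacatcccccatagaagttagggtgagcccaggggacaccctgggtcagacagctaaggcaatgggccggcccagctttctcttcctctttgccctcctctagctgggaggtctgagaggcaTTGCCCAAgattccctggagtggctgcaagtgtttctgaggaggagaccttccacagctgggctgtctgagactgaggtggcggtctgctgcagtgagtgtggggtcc
Lep: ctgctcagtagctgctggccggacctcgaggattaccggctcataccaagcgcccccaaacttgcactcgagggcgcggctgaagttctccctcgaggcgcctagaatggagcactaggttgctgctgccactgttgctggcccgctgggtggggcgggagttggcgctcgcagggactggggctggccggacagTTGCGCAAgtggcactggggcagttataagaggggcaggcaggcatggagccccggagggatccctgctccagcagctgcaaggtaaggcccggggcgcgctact
Pnpla2: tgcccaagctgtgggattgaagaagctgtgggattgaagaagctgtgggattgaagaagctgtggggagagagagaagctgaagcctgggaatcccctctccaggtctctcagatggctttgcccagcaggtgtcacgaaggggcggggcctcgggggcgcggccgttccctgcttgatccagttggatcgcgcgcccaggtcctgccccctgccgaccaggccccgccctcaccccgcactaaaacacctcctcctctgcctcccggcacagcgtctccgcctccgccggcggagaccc
Counted from the start of the gene, the match began at -81 in Adipoq, at -55 in Lep, and at -247, -187, and -58 in Plin1, whereas the Pnpla2 window held none. Windows were found for 8 of the 9 members, 10 windows in all, and 4 members (Adipoq, Lep, Plin1, and Cidec) held the motif, which 40.7% of all 32851 windows held as well. GTAAACA, a FoxO motif, occurred in 1 of the 2 Lipe windows and in 3.65% of all windows. The direct repeat bound by PPAR and RXR, with 1 free base between the repeats, and TATAAA occurred in no member window, and in 0.0396% and 13.6% of all windows. All motifs were searched on both strands, and a match is a description of the letters, not of binding.

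Libraries held 35913190 to 61032708 counts, and each member had at least 14 counts in every library, the 14 being Lep in CAC-1. Counting noise was minor, since counts of replicates in 1 group differed with a chi-square of 66.6 or more per degree of freedom. Some libraries stood apart. Nnt stands on 2 identifiers in the table. Under the first, ENSMUSG00000025453, it was at 43.3 to 112 CPM (counts relative to library size, scaled by TMM) in CAC-4, AM-1, AM-3, and KD-1, against 5.69 to 21.8 CPM in the other 12 libraries, and H2-K1 was at 66.4 to 117 CPM in those 4 against 190 to 895 CPM. Under the second identifier, KD-1 was not apart (49.8 CPM, against 55.8 CPM in KD-2 and 61.2 CPM in KD-3). Of these 4 libraries, 2 were labelled C57BL/6 and 2 BABL/c, so the split did not follow the strain labels. KD-3 held 0 counts of all 4 Y-linked genes examined. The labels name BALB/c mice of both sexes without giving the sex of a library, and the methods of the study also describe the purchased mice as male. Without KD-3, 0 members and 0.0% of all genes were called in KD vs. CAC. The B cell gene Cd79a was at 1.06 CPM or less in NOR-1, CAC-1, CAC-4, KD-2, and KD-3, and at 9.39 CPM or more in the other 11 libraries. Of those 5 libraries, NOR-1, CAC-1, KD-2, and KD-3 also had the lowest Adipoq levels of the 16. Calls without the 4 libraries high in Nnt are given beside the results, and the part of the B cell difference in the results was not tested.

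Adipoq encodes adiponectin, a hormone made almost only by fat cells. It stood at 31.1, 64.9, 55.7, and 255 CPM in NOR replicates 1 to 4, at 21.8, 104, 303, and 112 CPM in CAC, at 83.6, 386, 72.9, and 94.2 CPM in AM, and at 305, 33.6, 38.9, and 250 CPM in KD. High and low libraries occurred in every group, and all groups overlapped. The group means were 102 ± 103 (NOR), 135 ± 119 (CAC), 159 ± 152 (AM), and 157 ± 141 CPM (KD; SD, n = 4 each), so that the SD was about as large as the mean. Between mice of the same group the level differed 5.3-fold in AM to 13.9-fold in CAC, whereas the fitted change was 1.33-fold for CAC vs. NOR (log2 0.41, SE 0.831, edgeR FDR = 0.803). The log2 change of Adipoq was 1.42 without NOR replicate 4 and -0.37 without CAC replicate 3, so that 1 library turned its direction.

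Retn (resistin) and Cfd (complement factor D, or adipsin), both secreted by mouse fat cells, ran through the same libraries. Retn ranged from 6.53 CPM in CAC-1 to 112 CPM in CAC-3, and Cfd from 192 CPM in CAC-1 to 3353 CPM in CAC-3, so both ends of the range of each lay in the CAC group. Their fitted changes in CAC vs. NOR were 0.66 (SE 0.852) and 0.73 (SE 0.873) on the log2 scale, with FDRs of 0.671 and 0.645. Without CAC replicate 3 the log2 change was -0.01 for Retn and -0.2 for Cfd, and without NOR replicate 4 it was 1.63 and 1.71.

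Lep encodes leptin and was the least abundant member per length, with a median of 4.42 FPKM (fragments scaled to gene length and depth) over the 16 libraries, against 888 FPKM for Cfd, 641 for Fabp4, 354 for Pnpla2, 100 for Adipoq, 71.6 for Cidec, 52.7 for Lipe, 40.2 for Plin1, and 33.1 for Retn. Lep stood at 2.9, 7.2, 9.15, and 54.6 CPM in NOR replicates 1 to 4, at 0.317, 8.96, 2.11, and 4.4 CPM in CAC, at 0.939, 34.7, 9.99, and 12.1 CPM in AM, and at 18.3, 1.65, 3.76, and 46.3 CPM in KD. CAC had the lowest library and the lowest mean, 3.95 ± 3.73 against 18.5 ± 24.2 CPM in NOR (SD, n = 4), but NOR-1 lay below 2 of the CAC libraries. The log2 change was -2.23 for CAC vs. NOR (SE 1.09, FDR = 0.22), 1.87 for AM vs. CAC (SE 1.08, FDR = 0.368), and 2.16 for KD vs. CAC (SE 1.16, FDR = 0.537), none past the limits. Single libraries moved these values: the log2 change of Lep was -0.7 without NOR replicate 4, 0.95 for AM vs. CAC without AM replicate 2, and 1.01 for KD vs. CAC without KD replicate 4. For CAC vs. NOR it was -0.1 in the libraries labelled C57BL/6 alone and -3.3 in those labelled BABL/c alone.

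**Figure D1:**
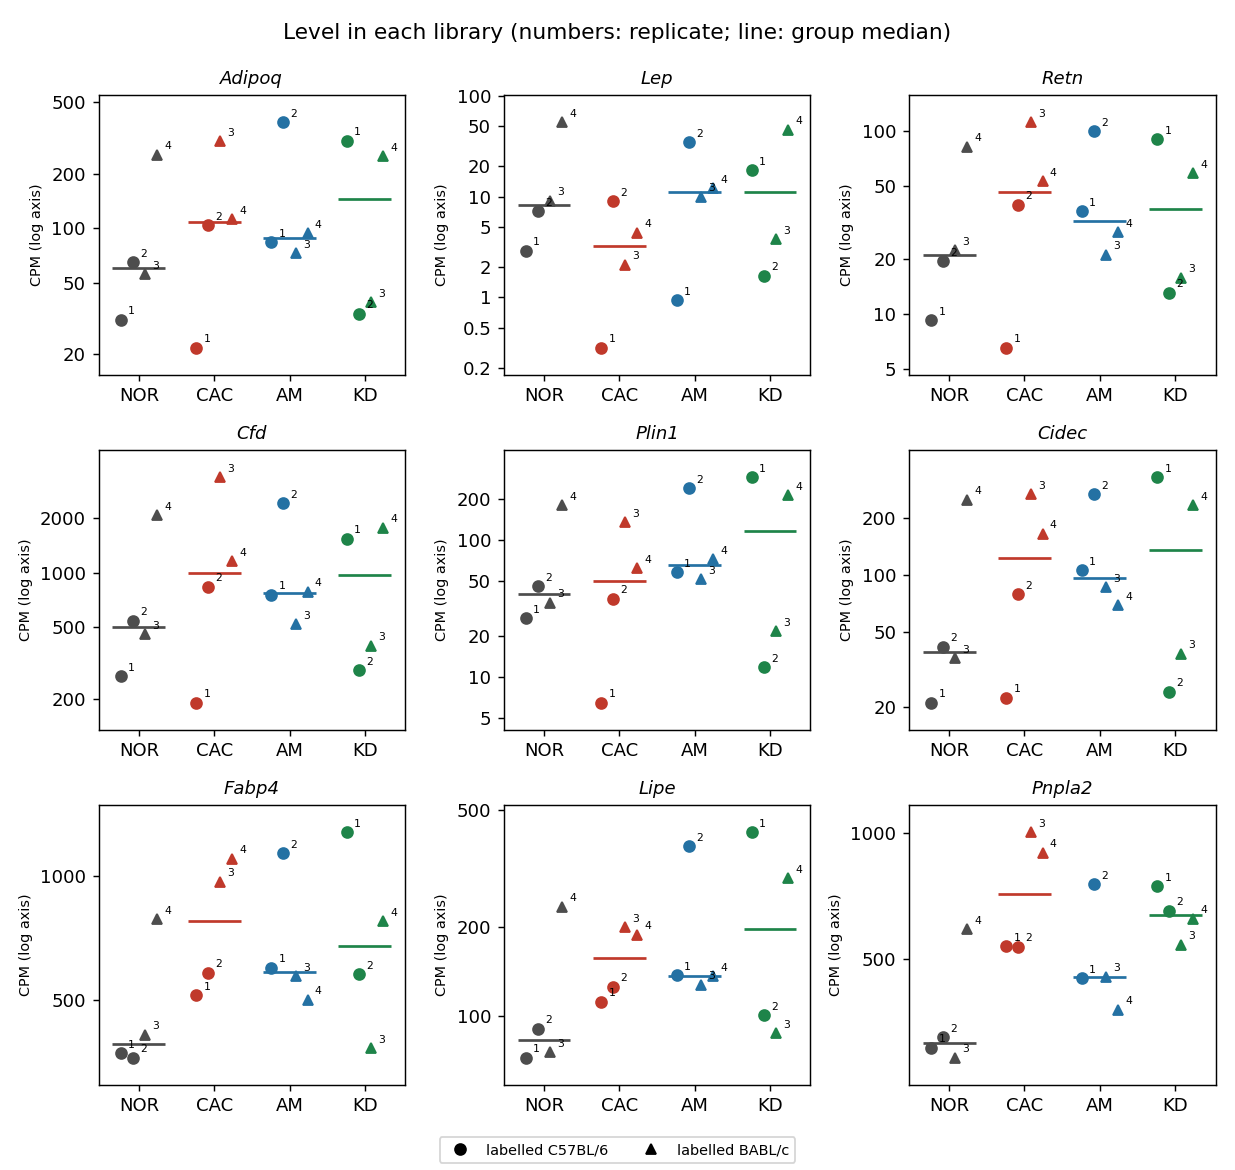
Level of each member in each library on a log axis of CPM, by group. Numbers are replicates, circles and triangles the labelled strains, and lines the group medians; in NOR, replicate 4 was the highest library for all 9 members, and in AM replicate 2 was.

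Plin1 encodes perilipin 1, which coats the droplet and gates access of lipases to it. It stood at 27, 46, 34.8, and 180 CPM in NOR replicates 1 to 4, at 6.48, 37.3, 135, and 62.6 CPM in CAC, at 58.4, 241, 52.1, and 73 CPM in AM, and at 289, 11.8, 21.5, and 213 CPM in KD. The groups overlapped, and after Lep it had the widest range of the members, 44.5-fold from CAC-1 to KD-1. Its fitted change was -0.25 for CAC vs. NOR (SE 0.873, FDR = 0.89), 0.82 for AM vs. CAC (SE 0.824, FDR = 0.628), and 1.19 for KD vs. CAC (SE 1.11, FDR = 0.772). The Plin1 change for CAC vs. NOR was 0.75 without NOR replicate 4 and -1.02 without CAC replicate 3. Its change for AM vs. CAC was 0.02 without AM replicate 2 and 1.58 without CAC replicate 3, and that for KD vs. CAC was 0.46 without KD replicate 1 and 1.95 without CAC replicate 3. Cidec, whose product helps droplets fuse and grow, ranged from 21.2 CPM in NOR-1 to 327 CPM in KD-1, and its log2 change in CAC vs. NOR was 0.61 (SE 0.913, FDR = 0.724), 0.02 without CAC replicate 3, and 2.01 without NOR replicate 4.

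Fabp4, Lipe, and Pnpla2 differed less between mice than the other members. Over the 16 libraries the highest level was 3.52 times the lowest for Fabp4, 5.79 times for Lipe, and 3.47 times for Pnpla2, against 15.4 to 172 times for the other 6 members. Fabp4, which carries fatty acids in fat cells and is also made by endothelial cells and macrophages, was at 363 to 788 CPM in NOR and at 514 to 1103 CPM in CAC (log2 change 0.71, SE 0.34, FDR = 0.207). Lipe was at 72.6 to 235 CPM in NOR and at 112 to 200 CPM in CAC (log2 change 0.4, SE 0.405, FDR = 0.571). An antisense gene, 4732471J01Rik, overlaps exons of Lipe, and whether the counting used strand was not given in the sources used here, so reads of that pair may be mixed.

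Pnpla2 came nearest to a change. It stood at 306, 324, 290, and 590 CPM in NOR replicates 1 to 4, at 537, 535, 1007, and 898 CPM in CAC, at 450, 756, 453, and 378 CPM in AM, and at 747, 653, 541, and 625 CPM in KD. In CAC, 2 libraries lay above all NOR libraries, and the other 2 lay above all NOR libraries but replicate 4. The means were 744 ± 245 CPM in CAC and 378 ± 142 CPM in NOR (SD, n = 4), a 1.97-fold difference (log2 0.98, SE 0.308) that missed the limit (edgeR FDR = 0.0698, two-sided exact permutation p = 0.0857, where 0.0286 is the smallest possible). It came past the limits with the labelled strain as a covariate (log2 0.94, FDR = 0.0296), with all 16 libraries in 1 fit (0.98, FDR = 0.0422), with DESeq2 (0.97, adjusted p = 0.0104), and without NOR replicate 4 (1.28, FDR = 0.0284). In those settings 10.2%, 7.91%, 13.1%, and 8.21% of all genes were called. Pnpla2 missed the limit with the replicate number as a block (0.98, FDR = 0.0552, 7.77% of all genes called) and without the 4 libraries high in Nnt (0.88, FDR = 0.136), and its highest FDR among 23 alternatives was 0.287. Without NOR replicate 4, Lipe was called as well (log2 0.98, FDR = 0.0403). The level was 642 ± 85.3 CPM in KD (KD vs. CAC log2 -0.2, FDR = 0.839) and 509 ± 168 CPM in AM (AM vs. CAC log2 -0.54, FDR = 0.326).

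All 9 members passed the filter on low counts in each comparison, and 0 were called, a call being an FDR up to 0.05 with a fold of 1.5 or above, or of 0.667 or below. Of all genes tested, 9.45% were called between CAC and NOR, 3.66% between AM and CAC, 0.00685% in KD vs. CAC, and 0.0% in both AM vs. NOR and KD vs. NOR. At an unadjusted p under 0.05, Pnpla2 was the 1 member to pass in CAC vs. NOR (29.1% of all genes) and in KD vs. NOR (3.54%). No member did so for AM vs. CAC (21.7%), KD vs. CAC (11.1%), or AM vs. NOR (9.19%). The members' median log2 change was 0.61 for CAC vs. NOR, beside 0.01 over all genes tested. It was -0.01 for AM vs. CAC (all genes 0.01) and 0.25 for KD vs. CAC (all genes 0.0). Against the same NOR libraries it was 0.55 for AM and 0.66 for KD (all genes 0.02 in both). Single libraries carried these medians. For CAC vs. NOR the median was -0.01 without CAC replicate 3 and 1.28 without NOR replicate 4, and leaving out 1 library at a time gave -0.61 to 0.57 for AM vs. CAC and -0.31 to 0.69 for KD vs. CAC. The medians of AM and KD against NOR were not recomputed in this way. DESeq2 called 1 member in CAC vs. NOR and 0 in the other 4 comparisons, where it called 7.63% of all genes between AM and CAC, 2.33% between KD and CAC, 0.475% between AM and NOR, and 0.21% between KD and NOR. It gave no p for 2 members, Plin1 and Cidec, in AM vs. NOR. Without the 4 libraries high in Nnt, 0 members were called in all 5 comparisons. Of all genes, 8.57% were called there between CAC and NOR, 0.00672% between KD and NOR, and 0.0% in the other 3, so that 0 members equals the background in those 3. The comparisons with CAC share its libraries, as those with NOR share theirs.

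The members rose and fell together from mouse to mouse. Across the 16 libraries, log2 CPM of Adipoq correlated with that of Cfd (Pearson's r = 0.978, Spearman's rho = 0.974), Retn (0.976 and 0.979), Cidec (0.966 and 0.962), and Plin1 (0.956 and 0.941), and their permutation p of 1e-05 was the smallest that 100000 resamples can give (1.6e-05 adjusted over 8 relations). Lipe (r = 0.89, rho = 0.9, p = 1e-05 for both) and Fabp4 (r = 0.806, permutation p = 0.0002; rho = 0.835, permutation p = 9e-05) followed less closely. Lep (r = 0.692, permutation p = 0.00307; rho = 0.638, p = 0.00926) and Pnpla2 (r = 0.575, permutation p = 0.021; rho = 0.615, p = 0.0129) followed least, with adjusted p of 0.00351 and 0.021 for r. Without AM-2 and CAC-1, the libraries farthest from the Adipoq median, r was 0.971 for Cfd, 0.969 for Retn, 0.965 for Cidec, 0.943 for Plin1, 0.913 for Lipe, 0.809 for Fabp4, 0.609 for Pnpla2, and 0.538 for Lep.

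Batches and gaps were examined in the same relations. With each value less the mean of its group, r was 0.755 for Pnpla2, 0.792 for Lep, and 0.854 to 0.984 for the other 6 members. Within the 8 libraries labelled C57BL/6, r was 0.851 to 0.992 for 6 members and 0.561 for Pnpla2, and Fabp4 followed Adipoq too (exact permutation p = 0.0142). Within the 8 labelled BABL/c it was 0.797 to 0.976 for all but Pnpla2 (0.613) and Lep (0.348). Adipoq levels left a gap between 112 and 250 CPM. In the 11 libraries below it, r was 0.982 for Cfd, 0.962 for Retn, 0.909 for Cidec, 0.893 for Plin1, 0.648 for Lipe, 0.63 for Lep, 0.5 for Fabp4 (permutation p = 0.113), and 0.131 for Pnpla2 (permutation p = 0.701). Below the gap the relations of Fabp4 and Pnpla2 with Adipoq thus missed the limit of the permutation test, whereas those of the other 6 members passed it.

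**Figure D2:**
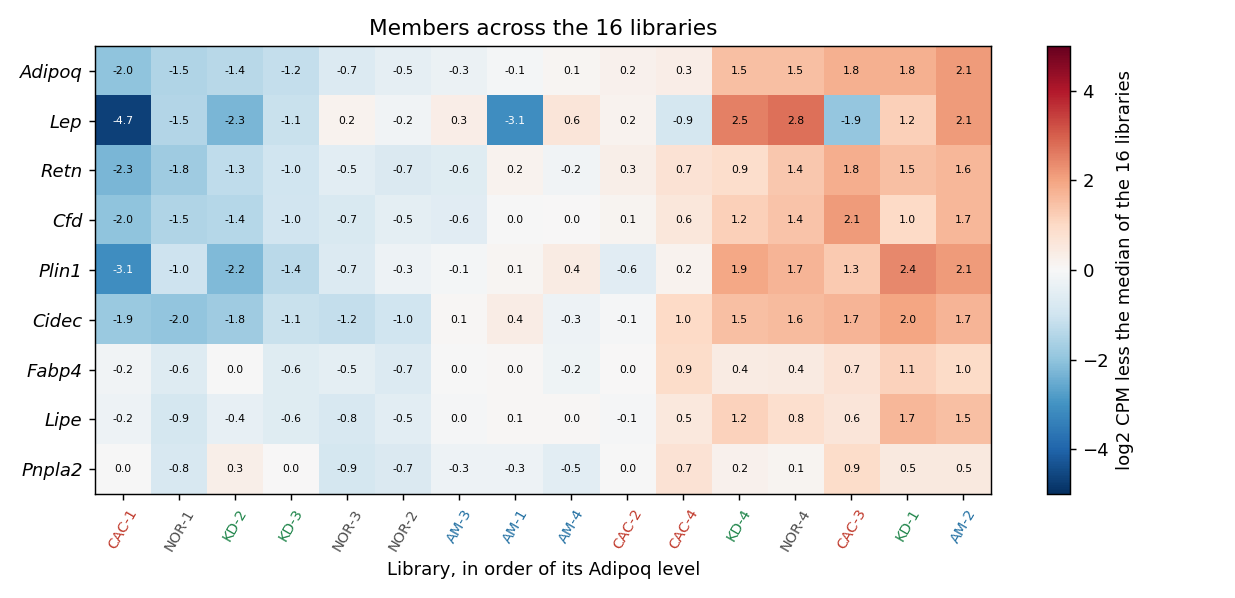
Log2 CPM of each member less its median over the 16 libraries (colour and numbers), with libraries in order of Adipoq from CAC-1 (21.8 CPM) to AM-2 (386 CPM). Retn, Cfd, Plin1, and Cidec followed this order; Lep departed from it in CAC-3 and AM-1, and Pnpla2 changed little along it.

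**Figure D3:**
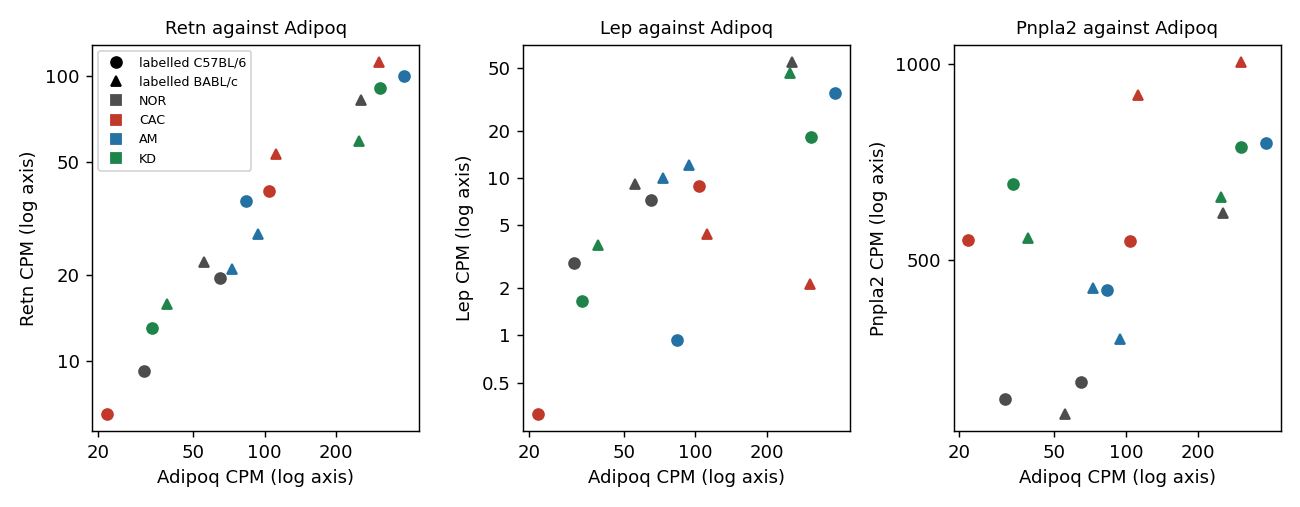
Retn, Lep, and Pnpla2 against Adipoq in the 16 libraries, both axes logarithmic in CPM, coloured by group. Pearson's r on log2 CPM was 0.976, 0.692, and 0.575.

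The genes most like Adipoq and Pnpla2 were sought among 13208 genes with a mean of at least 1 CPM, as a description over the 16 libraries. For Adipoq, the 5 non-members with the highest Pearson's r were A530016L24Rik (0.978), Pde3b (0.975), Mrap (0.973), Ces1f (0.967), and Slc36a2 (0.964). Pde3b encodes the phosphodiesterase through which insulin lowers cAMP in fat cells, and Mrap an accessory protein of the ACTH receptor. For Pnpla2 they were Fam213a (0.93), Lpl (0.914), Adipor2 (0.911), Rragc (0.91), and Pgrmc2 (0.906). Lpl encodes lipoprotein lipase, which frees fatty acids from circulating lipoproteins, and Adipor2 a receptor of adiponectin. The lists share no gene.

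Because the members followed one another within a library, they were also compared with a score of other adipocyte markers taken into account. The score was the mean log2 CPM of 12 other adipocyte markers that hold no member, and it ranged from 2.23 in CAC-1 to 5.34 in AM-2. It was not shown to measure the content of fat cells apart from their state. Its markers did not all move alike, with 7 positive and 5 negative estimates in CAC vs. NOR. Except for Plin4, the part of single markers in the calls below was not tested. With this score as a covariate, the SE of Adipoq in CAC vs. NOR went from 0.831 to 0.132 and that of Cidec from 0.913 to 0.21. Between CAC and NOR, 3 of 9 members were then called, all higher in CAC, where 10.7% of all genes were called. They were Pnpla2 (log2 1.01, SE 0.175, edgeR FDR = 0.0114), Cidec (0.86, SE 0.21, FDR = 0.0313), and Fabp4 (0.75, SE 0.207, FDR = 0.0467). Adipoq (0.38, FDR = 0.0888), Retn (0.56, FDR = 0.133), Cfd (0.58, FDR = 0.0528), and Lipe (0.56, FDR = 0.122) had positive estimates, and Lep (-1.57, FDR = 0.196) and Plin1 (-0.43, FDR = 0.146) negative ones.

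The score holds Plin4, a perilipin that muscle also expresses and that was itself called in CAC vs. NOR. Without Plin4 in the score, 4 members were called, Cfd in addition (log2 0.74, FDR = 0.026), where 11.0% of all genes were called. Adipoq then had an FDR of 0.035 at log2 0.53, short of the fold limit. With the score as a covariate, 0 members were called in AM vs. CAC (2.71% of all genes), and Pnpla2 came nearest (log2 -0.76, SE 0.185, edgeR FDR = 0.0715). In KD vs. CAC 0 members and 0.0% of all genes were called, the lowest member FDR being that of Cidec (log2 -0.43, FDR = 0.304).

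**Figure D4:**
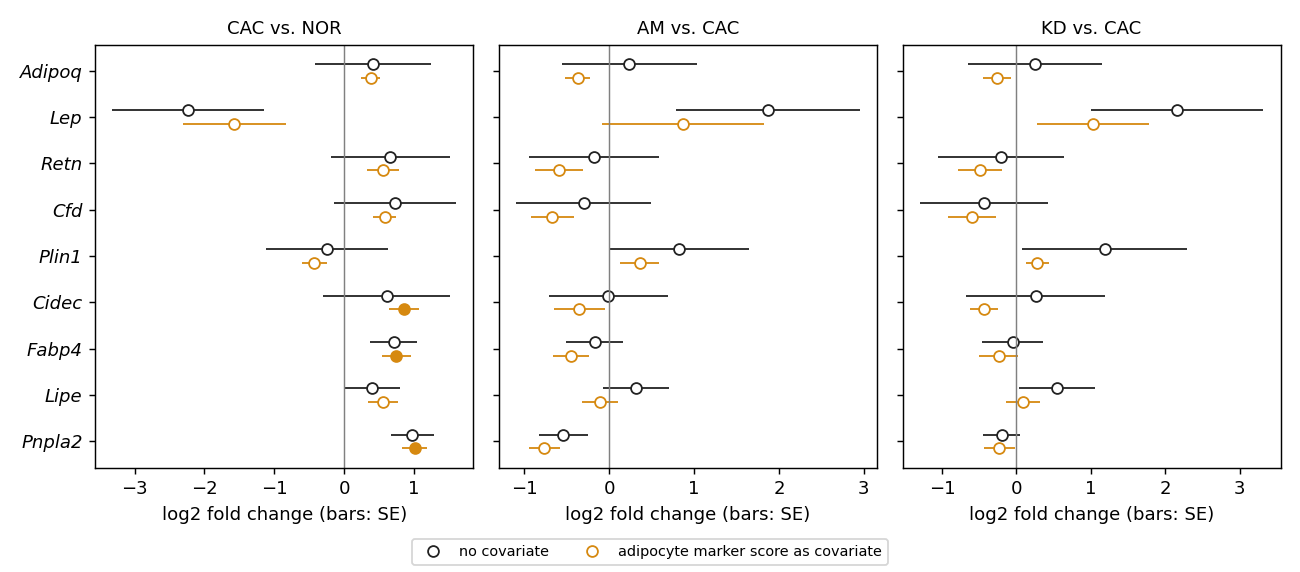
Log2 fold change of each member in 3 comparisons (bars: SE) without a covariate and with the adipocyte marker score as one; filled points passed the limits. Cidec, Fabp4, and Pnpla2 in CAC vs. NOR passed with the score, and the bars of Adipoq shrank from 0.831 to 0.132.

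A ratio to Adipoq within each library was examined after the values had been seen. Per 100 Adipoq counts, Plin1 had 86.7, 70.8, 62.4, and 70.3 counts in NOR replicates 1 to 4, 29.8, 36, 44.6, and 55.9 in CAC, 69.9, 62.3, 71.4, and 77.5 in AM, and 94.6, 35.2, 55.3, and 85.3 in KD. Every CAC library lay below every NOR library and every AM library, while KD overlapped CAC. The mean log2 ratio was lower by 0.83 in CAC than in NOR (0.561-fold) and higher by 0.79 in AM than in CAC (1.73-fold). The two-sided exact permutation p was 0.0286 for each, the smallest that 4 against 4 allow, and 0.381 adjusted over 40 tests, so neither passed the correction. In log2 terms the difference between CAC and NOR lay between -0.99 and -0.69 when each library was left out in turn.

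Lep per 100 Adipoq counts was 9.33, 11.1, 16.4, and 21.4 in NOR, 1.46, 8.64, 0.696, and 3.93 in CAC, 1.12, 8.99, 13.7, and 12.9 in AM, and 6.01, 4.91, 9.66, and 18.5 in KD. Every CAC library lay below every NOR library, by -2.5 on the log2 mean or 0.177-fold (exact permutation p = 0.0286, 0.381 adjusted over 40 tests). The log2 difference was -1.89 without CAC replicate 3 and -3.1 without CAC replicate 2. CAC-3 had the most Retn and Cfd of all libraries but only 2.11 CPM of Lep. The ratio of Cfd to Adipoq was narrower, 806 to 1105 counts per 100 Adipoq counts in CAC against 810 to 864 in NOR. The separations depended on the denominator. Against the adipocyte marker score, CAC and NOR overlapped for Lep (log2 difference -2.08, exact permutation p = 0.0857) and for Plin1 (-0.45, exact permutation p = 0.429), and so did AM and CAC for Plin1 (0.66, exact permutation p = 0.2). Against that score, Pnpla2 was lower in every AM library than in every CAC library (log2 difference -1.05, exact permutation p = 0.0286, 0.681 adjusted over 45 tests), whereas per Adipoq count AM and CAC overlapped for Pnpla2 (-0.92, exact permutation p = 0.286).

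**Figure D5:**
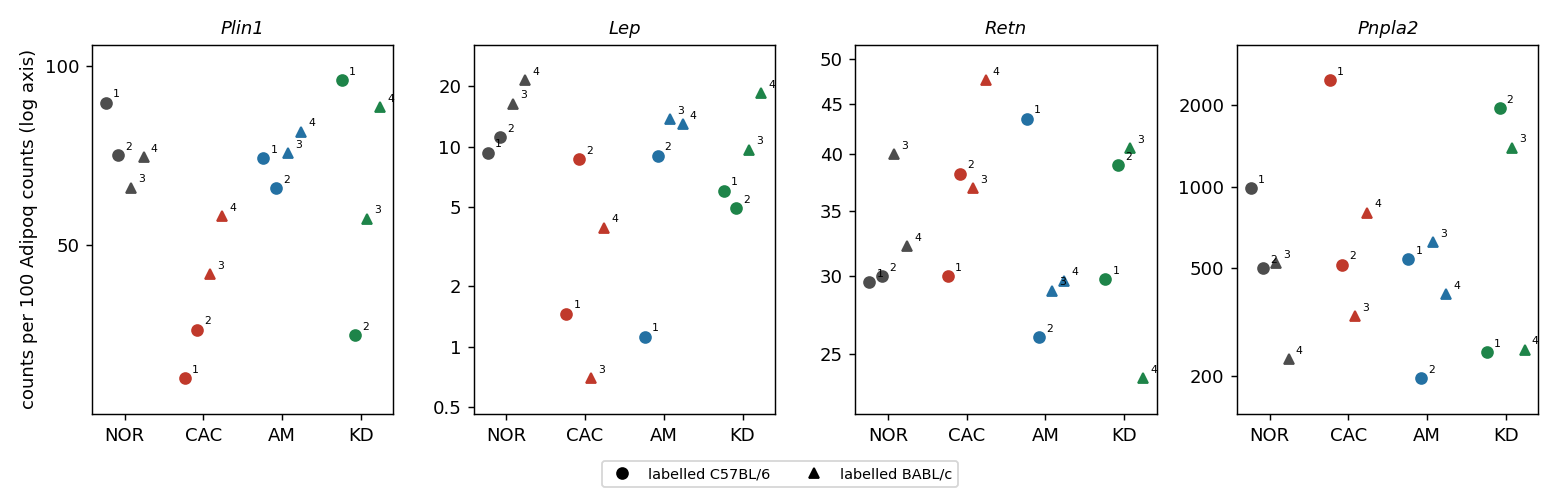
Counts of Plin1, Lep, Retn, and Pnpla2 per 100 Adipoq counts of the same library, on log axes, by group. For Plin1 the CAC libraries (29.8 to 55.9) lie below the NOR (62.4 to 86.7) and AM (62.3 to 77.5) libraries; for Retn and Pnpla2 the groups overlap.

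Other genes of fat handling were counted in lists, beside 4.32% of all genes called higher and 5.13% called lower in CAC than in NOR, and 1.63% called higher and 2.03% lower in AM than in CAC. Of 14 genes of the lipolysis machinery and its regulators (among them Abhd5, the coactivator of the Pnpla2 product, and its inhibitor G0s2), 0 were called in the comparison of CAC with NOR (median log2 change -0.11), of AM with CAC (0.12), or of KD with CAC (0.32). Of 15 other lipid droplet and triglyceride genes, 3 rose in CAC vs. NOR: Plin4 (597 ± 111 against 285 ± 115 CPM, log2 1.06, edgeR FDR = 0.0382), Plin5, the perilipin of oxidative tissues (32.5 ± 7.51 against 19.6 ± 3.6 CPM, log2 0.73, FDR = 0.0422), and Lpin1, a phosphatidate phosphatase of triglyceride synthesis (460 ± 89.8 against 277 ± 60.5 CPM, log2 0.73, FDR = 0.0456). In AM vs. CAC 2 of the 15 fell, Plin4 (log2 -1.04, FDR = 0.0486) and Lpin1 (log2 -0.67, FDR = 0.0473). Both calls were lost with the replicate number as a block and without the 4 libraries high in Nnt, where 0.0% of all genes were called in AM vs. CAC. Of 5 adipokine receptor genes, Lepr, the leptin receptor, rose in CAC vs. NOR (21.8 ± 2.72 against 11.6 ± 3.37 CPM, log2 0.91, FDR = 0.0305). Of 10 genes of fatty acid synthesis, Mlxipl, a carbohydrate-responsive transcription factor, fell (log2 -0.69, FDR = 0.035). Of the 12 adipocyte markers, Plin4, which is in this list too, was the 1 called. In KD vs. CAC no gene of these 5 lists was called.

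Markers of other cells were measured beside the members. Of 6 endothelial markers, Pecam1 (log2 0.77, edgeR FDR = 0.0126) and Flt1 (log2 0.6, FDR = 0.0183) rose in CAC vs. NOR. The list did not move as a whole, with 3 positive and 3 negative estimates (median log2 0.17). Of 6 macrophage markers, Itgam rose in CAC vs. NOR (log2 1.23, FDR = 0.0381) and fell in AM vs. CAC (log2 -1.13, FDR = 0.0268), the latter call being lost in the same 2 settings. The 6 macrophage estimates were 4 positive and 2 negative in CAC vs. NOR (median log2 0.56). In AM vs. CAC, 2 were positive and 4 negative (median -0.3). The summed level of 6 myofibre markers was 117351 to 176669 CPM in NOR, 52790 to 119167 in CAC, 106024 to 137559 in AM, and 92832 to 155482 in KD, and 0 of them were called. The 12 adipocyte markers summed to 290 to 764 CPM in NOR, 607 to 940 in CAC, 336 to 858 in AM, and 391 to 855 in KD, of which Plin4 alone made up 182 to 710 CPM. None of the 6 fibro-adipogenic progenitor, 8 lymphoid, and 4 male-sex markers was called in the 3 comparisons, nor were the brown fat markers that passed the filter on low counts, 3 of 5 in CAC vs. NOR and 4 of 5 in the others. Ucp1, which defines brown fat, was at 0 CPM in 9 libraries and at 16.8 and 40.1 CPM in AM-1 and KD-1. The part of other cells in the members' levels was not tested.

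The labelled strain was asked about last, from labels that the split in Nnt and H2-K1 did not follow. Over the 4 groups, 0 members differed between BABL/c and C57BL/6 libraries (0.0% of all genes called), with log2 differences of 0.06 to 0.72, and 0 were at an unadjusted p under 0.05 in edgeR. In the difference between strains of the AM vs. CAC change, all 9 estimates were negative (log2 -3.43 to -0.17) and 7 had an unadjusted p under 0.05, where 12.4% of all genes did, but the lowest FDR was 0.318 and 0.0% of all genes were called. Adipoq, for example, had a log2 change of 1.91 (SE 1.06) in the libraries labelled C57BL/6 and of -1.33 (SE 0.534) in those labelled BABL/c, each from 2 libraries against 2. DESeq2 called 4 members there (Cidec, Fabp4, Pnpla2, and Retn, adjusted p of 0.0047, 0.00944, 0.0129, and 0.0496), where 3.05% of all genes were called, and Pnpla2 in KD vs. CAC (adjusted p = 0.0107, 0.678% of all genes). For that KD vs. CAC difference, edgeR gave Pnpla2 -1.11 (FDR = 0.854), not called, and called 0.0% of all genes. For the strain difference of the CAC vs. NOR change, 0 members were called by edgeR (0.0% of all genes) or DESeq2 (0.852%), with an edgeR estimate of -3.16 (SE 2.0) for Lep.

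In GENCODE M21 on GRCm38 the members lie on 6 chromosomes. Adipoq is at 16:23146536-23158028, Lep at 6:29060220-29073877, Cidec at 6:113424634-113435760, Plin1 at 7:79720218-79732903, Lipe at 7:25379527-25398710, Pnpla2 at 7:141455198-141460743, Retn at 8:3655770-3660110, Cfd at 10:79890853-79892655, and Fabp4 at 3:10204088-10208576. All are protein-coding, and exons of none but Lipe overlap another gene there.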

How the data were processed

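Total RNA of gastrocnemius was sequenced after poly(A) selection by the authors. Their processing notes name fastp, Bowtie2, HISAT2, and StringTie 1.3.1, and the builds mm9 and GRCm38, with no role given. The deposited table holds raw counts per gene and FPKM values, which the authors computed per gene and library. No column was pooled. Counts were tested in edgeR 4.0.16 (TMM, filterByExpr with count and total limits of 10 and 15, quasi-likelihood F test, Benjamini-Hochberg FDR) on the 8 libraries of each comparison. NOISeq, used in the study, was not used here. FPKM served for levels between genes and, as log2(FPKM + 0.01), for an alternative. Log2 CPM used a prior count of 2, and count ratios added 0.5 to each count. Alternatives used DESeq2 1.42.0 and limma-voom 3.58.1. Scripts were tested on simulated data. The labels do not say how replicates were taken beyond 1 library each, so p-values measure the spread between these libraries. Named were all 9 members, of each other list the called genes (at most 5), and for Adipoq and Pnpla2 the 5 most similar genes. Nnt, H2-K1, Cd79a, and Ucp1 were named after their values were seen, and Abhd5 and G0s2 as examples of their list. The members and lists were chosen with earlier results of these data known.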

Additional observations from a re-analysis of the deposited data

Results flagged for a closer look

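Of 36 combinations of a member and a group, 13 had 1 library far above the other 3, with a gap to the next that filled more of the group's range than Dixon's 95% critical value allows; chance sets apart about 5% of such groups. The 13 are not independent, since the members moved together and 2 libraries made up all 13. NOR replicate 4 stood apart for Adipoq (255 CPM), Lep (54.6 CPM), Cfd (2068 CPM), Plin1 (180 CPM), Cidec (249 CPM), Fabp4 (788 CPM), Lipe (235 CPM), and Pnpla2 (590 CPM). AM replicate 2 stood apart for Adipoq (386 CPM), Cfd (2419 CPM), Plin1 (241 CPM), Fabp4 (1138 CPM), and Lipe (377 CPM).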

How the results depend on the processing

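In the other 4 comparisons than CAC vs. NOR, 0 members were called under each of the 23 alternatives, the one without the 4 libraries high in Nnt included. Of all genes, 0 were called under 18 of the 23 in KD vs. CAC, 20 in AM vs. NOR, and 20 in KD vs. NOR, while in AM vs. CAC the genes called ran from 0 (under 4 alternatives) to 1119 with DESeq2. In CAC vs. NOR, 1 was called with DESeq2, with the labelled strain as a covariate, and with all 16 libraries in 1 fit, 3 with the adipocyte marker score, 4 with that score without Plin4, and 0 to 2 when a library was left out (2 without NOR replicate 4). DESeq2 called 4 members for the strain difference in AM vs. CAC and 1 for that in KD vs. CAC. Whether the replicate numbers pair the mice was not given. Deviations of same-numbered libraries correlated from -0.237 to 0.685 in CAC vs. NOR and from -0.559 to 0.067 in AM vs. CAC. These correlations alone cannot decide it. With the replicate number as a block, Lep in AM vs. CAC had a log2 change of 1.82 (SE 0.196, edgeR FDR = 0.0793), short of the limit. With the replicate block 0 members were called in all 5 comparisons, as without it, and 7.77% of all genes in CAC vs. NOR and 0.0% in the other 4. The relation with Adipoq fell short of p = 0.05 for Lep in the 8 BABL/c libraries (r = 0.348, exact permutation), for Pnpla2 in both strains (0.561 and 0.613), and in the 11 libraries with less Adipoq for Fabp4 (0.5) and Pnpla2 (0.131). The score without Plin4, the fits without the libraries high in Nnt, the ratios, and the 11 libraries were chosen after seeing the data. The cause of these differences was not tested.

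Of 594 member estimates in the first 3 comparisons, 73 changed sign, none past the limits. In AM vs. CAC they were, with the score, Adipoq (-0.37) and Lipe (-0.11), and without Plin4 in it -0.53 and -0.17. In libraries labelled BABL/c they were Adipoq (-1.33), Plin1 (-0.67), and Lipe (-0.57), and in C57BL/6 Retn (1.57), Cfd (1.63), Cidec (1.88), Fabp4 (0.67), and Pnpla2 (0.17). The replicate block gave Retn 0.14, Cfd 0.17, and Cidec 0.28, and limma-voom 0.08, 0.12, and 0.31. Cidec was 0.0049 with RLE, 0.01 with DESeq2, and 0.19 with the strain as a covariate. Without the libraries high in Nnt, Retn was 0.29, Cfd 0.13, Cidec 0.45, and Fabp4 0.25. In KD vs. CAC they were Adipoq and Cidec with the replicate block (-0.04 and -0.29), with the score (-0.26 and -0.43), without Plin4 in it (-0.33 and -0.5), in BABL/c (-0.5 and -0.65, Lipe -0.02), and without the libraries high in Nnt (-0.41 and -0.32). Cidec was -0.03 with limma-voom and Retn 0.03 with the strain as a covariate, and in C57BL/6 Retn was 1.21, Cfd 0.86, Fabp4 0.79, and Pnpla2 0.41. With 1 library left out, CAC vs. NOR ranged from -0.37 to 1.42 (Adipoq), -0.01 to 1.63 (Retn), -0.2 to 1.71 (Cfd), -1.02 to 0.75 (Plin1), -3.03 to -0.7 (Lep), 0.02 to 2.01 (Cidec), 0.51 to 1.05 (Fabp4), 0.23 to 0.98 (Lipe), and 0.81 to 1.28 (Pnpla2). AM vs. CAC ranged from -0.69 to 1.01 (Adipoq), -0.88 to 0.49 (Retn), -1.01 to 0.62 (Cfd), -0.61 to 0.57 (Cidec), -0.5 to 0.03 (Fabp4), -0.22 to 0.48 (Lipe), 0.95 to 2.67 (Lep), 0.02 to 1.58 (Plin1), and -0.8 to -0.36 (Pnpla2). KD vs. CAC ranged from -0.31 to 1.01 (Adipoq), -0.84 to 0.46 (Retn), -0.9 to 0.48 (Cfd), -0.42 to 0.84 (Cidec), -0.45 to 0.17 (Fabp4), 1.01 to 2.95 (Lep), 0.46 to 1.95 (Plin1), 0.04 to 0.82 (Lipe), and -0.33 to -0.01 (Pnpla2).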
